A study of Mus musculus with 4 samples.

Results

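The Hedgehog pathway genes described here are 9 genes, the ligand gene Shh, the ligand-binding inhibitor gene Hhip, the receptor and co-receptor genes Ptch1 and Gas1, the signal transducer genes Smo and Sufu, and the transcription factor genes Gli1, Gli2 and Gli3. They were taken by mouse symbol from a list of pathway components, and all 9 were found among the 55421 genes of the count files. The cells were C57BL/6J astrocytes obtained in culture from neural stem cells (NSCs), which had been moved from EGF and FGF medium to a serum-containing differentiation medium. Astrocytes infected with a lentivirus for an shRNA specific for PHF8, a histone demethylase, gave 2 libraries, and astrocytes infected with a lentivirus for a control shRNA gave the other 2. An shRNA lowers its target by RNA interference. Each group carried a single hairpin label, and the labels name no hairpin sequence.

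As background, a Hedgehog ligand binds the receptor Patched and so relieves the membrane protein Smoothened from inhibition. Smoothened then acts at the primary cilium on the GLI factors, which are otherwise held by Sufu and partly cut into repressors, GLI3 above all. Gli1, Ptch1 and Hhip are transcribed in response to the signal in many tissues, and the Patched and Hhip proteins act as a brake by binding ligand. In the brain, neurons are a known source of Sonic hedgehog and astrocytes a known responding cell.

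The 4 libraries held 36839530 to 44724759 reads assigned to genes. Phf8 itself stood at 44.3 and 42.3 CPM in the Phf8 shRNA libraries and at 53.3 and 53.0 CPM in the control shRNA libraries, where CPM is the reads of a gene relative to its library's total, after TMM (trimmed mean of M-values) scaling. Phf8 thus fell by 18.5% (log2 fold change -0.30 ± 0.06 SE, adjusted p = 1.72e-06, edgeR), and did not pass with the biological coefficient of variation, estimated at 3.64% from these libraries, set to 0.2 (adjusted p = 0.639, edgeR likelihood ratio test). Mitochondrial ribosomal RNA took 27.8% and 28.2% of the reads with Phf8 shRNA and 21.2% and 22.5% with control shRNA. Without mitochondrial genes and the 20 most abundant ones, the fit changed no call among the 9 pathway genes. All 10 markers of astrocytes were detected, 3 of them higher and 6 lower in the edgeR test, and their summed level was 5954 to 6670 CPM with Phf8 shRNA and 9324 to 9573 CPM with control shRNA. Marker lists of other states also moved between the groups, in a test that called 24.8% of all genes tested higher and 27.3% lower. The 10 oligodendrocyte lineage markers, 9 of which rose, summed to 1147 to 1179 CPM with Phf8 shRNA and 643 to 688 CPM with control shRNA. Of the 10 neuron markers 7 rose, and 2, Slc17a7 and Stmn2, had too few reads to be tested. The neuron markers summed to 1896 to 1901 CPM with Phf8 shRNA and 1156 to 1195 CPM with control shRNA. The 8 neural stem and progenitor markers, 4 of which rose and 3 of which fell, summed to 3381 to 3692 CPM with Phf8 shRNA and 7284 to 7447 CPM with control shRNA. Of the 8 ependymal and multiciliated markers 6 fell, and 1 had too few reads to be tested. They summed to 46.0 to 49.8 CPM with Phf8 shRNA and 210 to 217 CPM with control shRNA. The 6 cell cycle markers, all of which fell, summed to 57.9 to 63.4 CPM with Phf8 shRNA and 117 to 118 CPM with control shRNA. Of the 10 endothelial, mural and fibroblast markers 1 rose, 3 fell and 4 had too few reads to be tested. Their sums were 25.7 to 26.0 CPM with Phf8 shRNA and 25.9 to 26.1 CPM with control shRNA. The 6 microglia markers, 3 of which passed the low-count filter, summed to 3.38 to 3.81 CPM with Phf8 shRNA and 3.06 to 3.19 CPM with control shRNA. No marker of any of these lists was at 0 in all libraries. The part of these shifts in the results below was not tested, and in bulk RNA fewer cells of a type and less RNA per cell cannot be told apart.

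The comparison asks which Hedgehog pathway transcripts differ when Phf8 is targeted in astrocytes. Gli2, Hhip, Gli3, Ptch1 and, by a smaller amount, Sufu were higher with Phf8 shRNA, Gas1 was slightly lower, Smo and Gli1 did not pass the test, and Shh had too few reads to be tested. So 5 of the 9 genes rose and 1 fell at an adjusted p under 0.05 (edgeR quasi-likelihood F test, Benjamini-Hochberg adjustment over all genes). Of the 21042 genes tested, 52.1% were called, 24.8% as higher and 27.3% as lower, so a call in either direction was common in these libraries. The median log2 fold change of the 8 tested pathway genes was 0.56, beside 0.01 over all genes tested. The groups did not overlap for 6 of the 9 pathway genes, and they did not overlap for 73.9% of all genes tested. Of all calls 47.7% were higher with TMM scaling and 58.0% with upper-quartile scaling. The labels call the samples biological replicates without saying whether cultures or infections were separate, so every p rests on a spread between samples that could be purely technical.

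**Figure D1:**
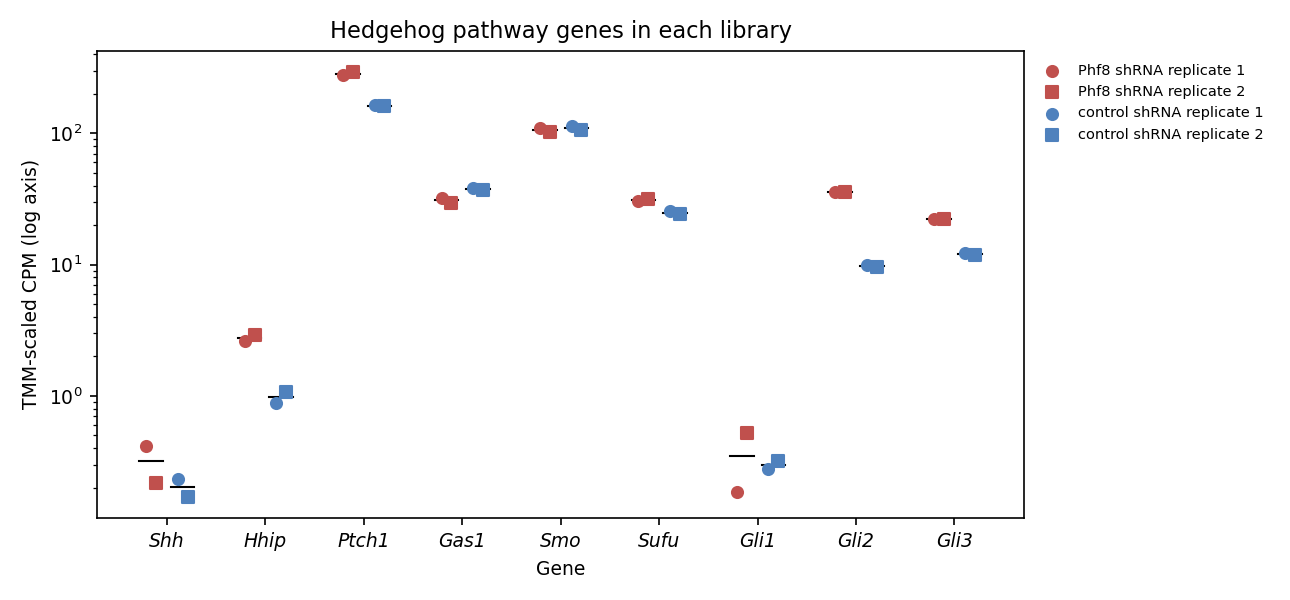
Level of each Hedgehog pathway gene in each library, as TMM-scaled CPM on a log axis, with Phf8 shRNA libraries in red left of control shRNA libraries in blue and a black line at each mean of 2 libraries. Gli2, Gli3, Ptch1 and Hhip stand clearly apart between the groups, Smo overlaps, and Shh and Gli1 lie below 1 CPM with wide spread.

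Shh (ENSMUSG00000002633, minus strand of chromosome 5, 28456815 to 28467256 in mm10), which encodes the secreted ligand Sonic hedgehog, was near the limit of detection. It had 18 and 8 reads in the Phf8 shRNA libraries and 10 and 7 reads in the control shRNA libraries, or 0.416 and 0.218 CPM against 0.231 and 0.171 CPM. The groups overlapped, and the depth-adjusted ratio of reads was 1.61 with a 95% exact binomial counting interval of 0.841 to 3.16. A change of Shh within that interval was not detectable at this depth, and the interval covers counting error only. Exons of genes on the opposite strand overlap 28.3% of the exonic length of Shh, and whether reads were counted by strand is not stated in the labels. The named overlapping transcript, 9530036O11Rik, had 9 reads with Phf8 shRNA and 2 with control shRNA.

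Hhip (ENSMUSG00000064325, minus strand of chromosome 8, 79965851 to 80058006) encodes a membrane protein that binds Hedgehog ligands and keeps them from Patched. It had 2.64 and 2.89 CPM in the Phf8 shRNA libraries, from 114 and 106 reads, against 0.878 and 1.08 CPM in the control shRNA libraries, from 38 and 44 reads. Both Phf8 shRNA values lay above both control values, and Hhip rose 2.82-fold (95% interval 2.13 to 3.73, or 1.09 to 1.90 on the log2 scale, adjusted p = 2.56e-12, edgeR). Hhip is a low-abundance transcript here, and 7.28% of tested genes had a larger absolute log2 fold change.

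Ptch1 (ENSMUSG00000021466, minus strand of chromosome 13, 63508328 to 63573598), the gene of the Hedgehog receptor Patched, was the most abundant of the 9 genes in CPM. Its level was 278 and 293 CPM in the Phf8 shRNA libraries and 163 and 161 CPM in the control shRNA libraries. The groups were well separated, and Ptch1 rose 1.76-fold (95% interval 1.63 to 1.90, log2 fold change 0.81 ± 0.06 SE, adjusted p = 3.37e-45, edgeR). With 22746 Phf8 shRNA reads and 13650 control shRNA reads behind it, Ptch1 is the most deeply sampled of the set, and no exon of another gene overlaps it.

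Gas1 (ENSMUSG00000052957, minus strand of chromosome 13, 60174405 to 60177365) encodes a membrane-anchored co-receptor that binds ligand beside Patched, and in embryos the gene is known to be repressed by Hedgehog signalling. It was slightly lower, at 32.4 and 29.7 CPM with Phf8 shRNA and 38.4 and 37.1 CPM with control shRNA. The groups did not overlap, and Gas1 fell by 0.28 on the log2 scale (SE 0.06, adjusted p = 2.44e-05, edgeR), or by 17.7%. The call was lost when the biological coefficient of variation was set to 0.2 (adjusted p = 0.667, edgeR likelihood ratio test). A predicted gene on the opposite strand, Gm48488, overlaps 19.9% of its exonic length but had only 29 reads with Phf8 shRNA and 21 with control shRNA.

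Smo (ENSMUSG00000001761, plus strand of chromosome 6, 29735503 to 29761365), the gene of the signal transducer Smoothened, was highly expressed in both groups. It stood at 109 and 103 CPM in the Phf8 shRNA libraries and at 113 and 106 CPM in the control shRNA libraries. These ranges overlapped, and the log2 fold change of -0.04 did not pass (95% interval -0.15 to 0.07, adjusted p = 0.542, edgeR), while upper-quartile scaling gave 0.04. The interval leaves room for a fold change between 0.900 and 1.05.

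Sufu (ENSMUSG00000025231, plus strand of chromosome 19, 46396896 to 46488804) encodes the protein that binds GLI factors and restrains them in the cytoplasm. Its level was 30.4 and 31.5 CPM with Phf8 shRNA and 25.6 and 24.2 CPM with control shRNA. The groups did not overlap, and Sufu rose 1.24-fold (95% interval 1.13 to 1.36, adjusted p = 9.69e-06, edgeR), a change smaller than that of 51.1% of all tested genes. With the biological coefficient of variation set to 0.2 the call was lost (adjusted p = 0.615, edgeR likelihood ratio test).

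Gli2 (ENSMUSG00000048402, minus strand of chromosome 1, 118834132 to 119053619), which encodes the main activator among the GLI zinc finger factors, changed most of the set. It had 35.9 and 35.9 CPM in the Phf8 shRNA libraries, from 1552 and 1319 reads, against 9.96 and 9.51 CPM in the control shRNA libraries, from 431 and 389 reads. Replicates lay close together and the groups far apart, and Gli2 rose 3.69-fold (95% interval 3.33 to 4.08, log2 fold change 1.88 ± 0.08 SE, adjusted p = 7.94e-135, edgeR). A larger absolute log2 fold change was seen in 4.70% of tested genes, and a more positive one in 1.17%.

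Gli3 (ENSMUSG00000021318, plus strand of chromosome 13, 15463235 to 15730026) encodes the GLI factor best known as a repressor after proteolytic cutting. Its level was 22.1 and 22.3 CPM with Phf8 shRNA and 12.3 and 11.8 CPM with control shRNA. The groups were separated here too, and Gli3 rose 1.84-fold (95% interval 1.66 to 2.05, log2 fold change 0.88 ± 0.08 SE, adjusted p = 1.35e-28, edgeR). Gli2, Hhip, Gli3 and Ptch1 kept their calls with the biological coefficient of variation set to 0.2, with adjusted p of 1.99e-08, 0.000219, 0.0218 and 0.0354 (edgeR likelihood ratio test). The counts are of whole transcripts and do not tell activator from repressor forms of the proteins.

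Gli1 (ENSMUSG00000025407, minus strand of chromosome 10, 127329882 to 127341974), whose transcript is the usual readout of an active pathway, was barely detected. It had 8 and 19 reads in the Phf8 shRNA libraries and 12 and 13 reads in the control shRNA libraries, or 0.185 and 0.518 CPM against 0.277 and 0.318 CPM. Both control values lay between the Phf8 shRNA values, and the log2 fold change of 0.19 ± 0.43 (SE) did not pass (adjusted p = 0.743, edgeR). The sign rested on Phf8 shRNA replicate 2, without which the value was -0.67. The ratio of reads was 1.14 with a 95% counting interval of 0.635 to 2.04, which covers counting error only and not the spread between the Phf8 shRNA libraries.

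**Figure D2:**
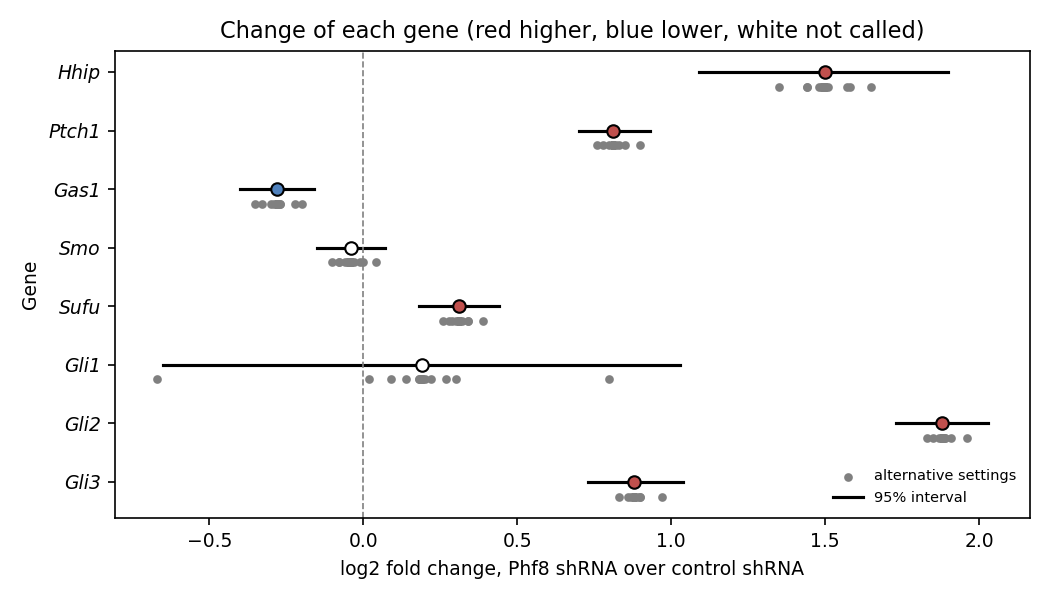
Log2 fold change of Phf8 shRNA over control shRNA for the 8 tested genes, with 95% intervals as black lines and the values under alternative settings as grey points below. Gli2 at 1.88 and Hhip, with an interval of 1.09 to 1.90, lie farthest to the right, Gli3 and Ptch1 near 0.88 and 0.81, and Gli1 has the widest interval, from -0.65 to 1.03.

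Within the GLI family, Gli2 rose more than Gli3, with log2 fold changes of 1.88 and 0.88. The ratios that follow restate this difference library by library. Levels of different genes were compared per kilobase of exon, with the length taken over all annotated exons of a gene. The transcripts expressed can be shorter, so a level relative to another gene depends on the annotation. On this scale Gli2 stood at 2.26 and 2.25 times the level of Gli3 in the Phf8 shRNA libraries. In the control shRNA libraries it stood at 1.13 and 1.12 times that level. The ratios of the groups did not overlap, although with 2 libraries against 2 the exact two-sided permutation test gives 0.333, the smallest p that it allows. Gli2 made up 69.0% and 68.3% of the summed level of the 3 GLI genes per kilobase with Phf8 shRNA, against 52.1% and 51.7% with control shRNA.

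**Figure D3:**
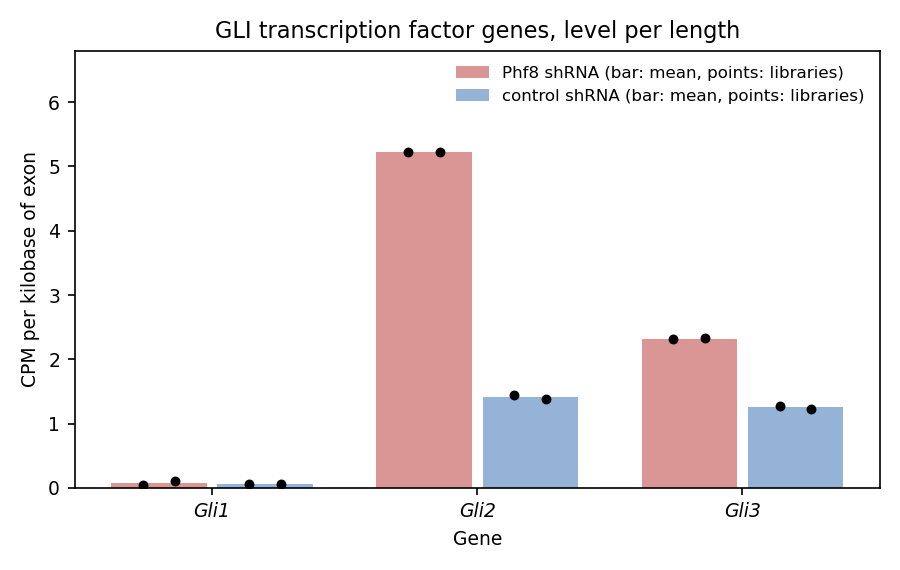
CPM per kilobase of exon for Gli1, Gli2 and Gli3, with bars for the mean of 2 libraries and points for the libraries, Phf8 shRNA left of control shRNA. Gli2 averages 5.23 with Phf8 shRNA and 1.42 with control shRNA, Gli3 averages 2.32 with Phf8 shRNA and 1.26 with control shRNA, and Gli1 stays below 0.11 in every library.

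The order of the 9 genes by level per kilobase also differed between the groups, among Ptch1, Smo and Gas1 and between Gli2 and Sufu. With Phf8 shRNA the order was Ptch1 at 20.1 ± 0.744 CPM per kilobase (mean ± SD, n = 2 here and below), Smo at 18.9 ± 0.737, Gas1 at 10.5 ± 0.653, Gli2 at 5.23 ± 0.00403, Sufu at 4.03 ± 0.0972, Gli3 at 2.32 ± 0.0132, Hhip at 0.304 ± 0.0196, Shh at 0.111 ± 0.0493 and Gli1 at 0.0703 ± 0.0471. With control shRNA Smo came first at 19.5 ± 0.851 CPM per kilobase, followed by Gas1 at 12.7 ± 0.296, Ptch1 at 11.4 ± 0.110, Sufu at 3.24 ± 0.128 and Gli2 at 1.42 ± 0.0467. Gli3 at 1.26 ± 0.0345 CPM per kilobase, Hhip at 0.108 ± 0.0154, Shh at 0.0706 ± 0.0149 and Gli1 at 0.0596 ± 0.00572 closed the control order. Neighbours in each order were separated in both libraries of the group except Shh and Gli1, whose ranges overlapped in both groups. Both orders rest on the annotated exon lengths. In the same libraries Ptch1 stood at 1.01 and 1.12 times the level of Smo per kilobase with Phf8 shRNA, against 0.573 and 0.601 times with control shRNA.

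The promoters of the 4 genes that rose most are shown, picked by that outcome, and shared control of these genes was not tested. They lie on different chromosomes save for Ptch1 and Gli3, which are both on chromosome 13. RefSeq (GRCm38.p6) holds a promoter window, 250 bases before to 50 after a transcription start, for 7 of the 9 genes, all but Shh and Gli1. The windows are chr1:119053570-119053869 for Gli2, chr13:63565686-63565985 for Ptch1 and chr8:80057959-80058258 for Hhip, on the minus strand, and chr13:15463473-15463772 for Gli3 on the plus strand. The windows of Ptch1 and Gli3 belong to starts inside the genes as deposited. Capitals mark the GC box GGGCGG or its reverse complement CCGCCC.
Gli2: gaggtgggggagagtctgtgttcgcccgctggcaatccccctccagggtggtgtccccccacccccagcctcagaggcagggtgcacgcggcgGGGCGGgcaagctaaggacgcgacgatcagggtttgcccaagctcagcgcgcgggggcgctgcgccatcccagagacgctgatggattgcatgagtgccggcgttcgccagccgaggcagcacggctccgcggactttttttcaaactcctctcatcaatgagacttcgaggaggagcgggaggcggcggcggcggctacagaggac
Gli3: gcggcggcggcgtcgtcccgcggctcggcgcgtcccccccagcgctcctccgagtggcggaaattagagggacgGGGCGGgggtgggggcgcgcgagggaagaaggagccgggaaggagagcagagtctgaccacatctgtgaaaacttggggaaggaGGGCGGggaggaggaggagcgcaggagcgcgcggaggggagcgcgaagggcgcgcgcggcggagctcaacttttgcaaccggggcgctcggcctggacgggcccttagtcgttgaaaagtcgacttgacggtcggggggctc
Ptch1: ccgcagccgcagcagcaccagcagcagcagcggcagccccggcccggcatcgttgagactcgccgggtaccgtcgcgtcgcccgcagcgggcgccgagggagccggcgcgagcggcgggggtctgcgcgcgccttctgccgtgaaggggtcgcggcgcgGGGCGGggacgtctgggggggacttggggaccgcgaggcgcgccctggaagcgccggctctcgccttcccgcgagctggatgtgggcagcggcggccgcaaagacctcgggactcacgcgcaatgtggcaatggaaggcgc
Hhip: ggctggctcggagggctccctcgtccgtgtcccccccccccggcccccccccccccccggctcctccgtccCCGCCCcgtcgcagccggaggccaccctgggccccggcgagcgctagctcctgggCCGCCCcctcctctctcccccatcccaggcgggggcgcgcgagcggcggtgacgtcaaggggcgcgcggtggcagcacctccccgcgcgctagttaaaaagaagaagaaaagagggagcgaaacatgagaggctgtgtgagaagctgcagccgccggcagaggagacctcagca
The GLI consensus letters GACCACCCA, or TGGGTGGTC on the other strand, were in none of the 7 windows, and in 0.253% of the 32851 mouse promoter windows of this length. The GC box was in 6 of the 7 windows, all but that of Smo, and in 35.7% of all windows. The 4 windows shown were rich in G and C, at 67.3% for Gli2, 71.0% for Gli3, 76.3% for Ptch1 and 73.7% for Hhip, against a median of 52.7% and a 75th percentile of 61.7% over all windows. The windows of the other 3 genes with an entry held 62.3% (Gas1), 67.7% (Smo) and 56.3% (Sufu). A match or its absence describes these letters only.

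Other genes of the pathway, listed by role, were read from the same fit. Beside the counts of each role list stand the 24.8% of all genes tested that were called higher and the 27.3% called lower. Among 9 genes of ligands and ligand release, 5 rose and 1 fell, 1 did not pass, and Ihh and Dhh, the other Hedgehog ligand genes, were not tested. Ihh had 12 reads with Phf8 shRNA and 5 with control shRNA, and Dhh had 3 reads with Phf8 shRNA and 8 with control shRNA, so the transcripts of all 3 ligands were near the limit of detection in both groups. Disp1, which encodes the transporter that releases the lipid-bearing ligand, had 14.3 and 16.0 CPM with Phf8 shRNA against 9.25 and 7.94 CPM with control shRNA and rose 1.75-fold. Its relatives Disp2 and Disp3 rose 1.82-fold and 1.41-fold. The genes of the secreted SCUBE proteins, which carry released ligand, went both ways. Scube3 fell to 17.0 and 19.3 CPM with Phf8 shRNA, against 27.0 and 26.4 CPM with control shRNA, whereas Scube2 rose at a very low level, with 42 Phf8 shRNA reads against 15 control shRNA reads (ratio 2.95, 95% counting interval 1.60 to 5.72). The call of Scube2 was lost without control shRNA replicate 2 and without Phf8 shRNA replicate 1 (adjusted p = 0.0817 and 0.062, edgeR) and with DESeq2 (0.0688). The median log2 fold change of the 7 tested genes was 0.81.

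Among 8 co-receptor and membrane regulator genes, 4 fell and 0 rose in the edgeR test, 3 did not pass and 1 was not tested. At an unadjusted p under 0.05, 0 rose as well, and DESeq2 and limma-voom each called 0 higher. Lrp2, the gene of the endocytic receptor megalin, which binds Sonic hedgehog, had 43.3 and 47.9 CPM with Phf8 shRNA against 161 and 156 CPM with control shRNA. It fell 3.48-fold, with no overlap of the groups (log2 fold change -1.80 ± 0.06 SE, adjusted p = 1.21e-204, edgeR). Cdon, a ligand-binding co-receptor gene that acts beside Gas1, fell 1.43-fold, to 35.5 and 35.9 CPM with Phf8 shRNA, against 51.7 and 50.6 CPM with control shRNA. Boc, the third co-receptor gene, and Mosmo, whose product lowers Smoothened at the membrane, fell by 0.17 and 0.14 on the log2 scale. Both calls depended on the setting, since with upper-quartile scaling Boc and Mosmo did not pass and 1 other gene, Mgrn1, was called higher, leaving 2 lower and 1 higher. Leaving out control shRNA replicate 1 ended the call of Boc (adjusted p = 0.119, edgeR), and leaving out control shRNA replicate 2 or Phf8 shRNA replicate 2 ended that of Mosmo (0.355 and 0.189). DESeq2 called neither Boc nor Mosmo (adjusted p = 0.0543 and 0.152). The median of the 7 tested genes was -0.17.

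Of 20 genes of the cilium and of GLI processing, 11 fell, 4 rose and 5 did not pass, with a median of -0.19. Over all genes tested, 27.3% fell and 24.8% rose. Csnk1a1, a casein kinase gene whose product phosphorylates GLI and Smoothened proteins, fell 2.22-fold, to 346 and 333 CPM with Phf8 shRNA, against 745 and 762 CPM with control shRNA. Ift88, a gene of intraflagellar transport needed to build cilia, fell 2.03-fold, to 11.8 and 11.7 CPM with Phf8 shRNA, against 23.3 and 24.2 CPM with control shRNA. Stk36, a kinase gene with a known part in motile cilia in mice, fell 2.01-fold, and the multiciliated marker list given above fell with it, a relation that was not tested. Spop, whose product marks GLI2 and GLI3 proteins for degradation, fell 1.83-fold, to 43.5 and 41.4 CPM with Phf8 shRNA, against 77.2 and 77.8 CPM with control shRNA. Gpr161, the gene of a ciliary receptor that restrains the pathway through cyclic AMP, fell 1.35-fold. The largest adjusted p of these 5 genes was 3.23e-13 (edgeR). The 4 genes that rose were Ulk3, Gsk3b, Dyrk2 and Grk2, named after their values were seen. Their count was 2 without Phf8 shRNA replicate 1, where Dyrk2 and Grk2 did not pass.

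Of 17 genes known as GLI targets in other tissues, 4 rose and 5 fell, 2 did not pass and 6 were not tested, 3 of which, Nkx2-9, Nkx6-1 and Foxa2, had no read in any library. Nkx2-2, a homeobox gene of ventral neural progenitors and of oligodendrocyte precursors, rose 4.33-fold, to 3.72 and 3.05 CPM with Phf8 shRNA, against 0.786 and 0.782 CPM with control shRNA. Cntfr, a cytokine receptor gene, rose 2.27-fold, to 40.9 and 38.4 CPM with Phf8 shRNA, against 17.5 and 17.5 CPM with control shRNA. Olig2, a transcription factor gene that also belongs to the oligodendrocyte marker list, rose 1.38-fold. That marker list was higher with Phf8 shRNA by the sums given above, and its part in Nkx2-2 and Olig2 was not tested. The cyclin gene Ccnd2 fell 2.09-fold, to 39.1 and 38.6 CPM with Phf8 shRNA, against 80.7 and 81.7 CPM with control shRNA, and the survival gene Bcl2 fell 1.65-fold. The cell cycle markers were lower beside them, and that relation was not tested either. The largest adjusted p of these 5 genes was 6.20e-16 (edgeR). Exons of the opposite-strand gene Nkx2-2os overlap 9.67% of the exonic length of Nkx2-2. Nkx2-2os had 33 reads with Phf8 shRNA and 10 with control shRNA, and Nkx2-2 itself had 273 and 66. Opposite-strand exons also overlap 23.4% of Ccnd1, 7.9% of Ccnd2 and 6.1% of Bcl2. Without control shRNA replicate 2 the count of lower genes was 3, since Ccnd1 and Foxm1 did not pass there (adjusted p = 0.0585 and 0.0939, edgeR). The median of the 11 tested genes was -0.27, so Ptch1 and Hhip rose while the wider set of targets moved both ways. Of the genes named from these role lists by the rule, Disp1, Disp2, Scube2, Lrp2, Csnk1a1, Ift88, Stk36, Spop, Nkx2-2, Cntfr and Ccnd2 kept their calls with a coefficient of variation of 0.2, and Disp3, Scube3, Cdon, Boc, Mosmo, Gpr161, Bcl2 and Olig2 did not.

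**Figure D4:**
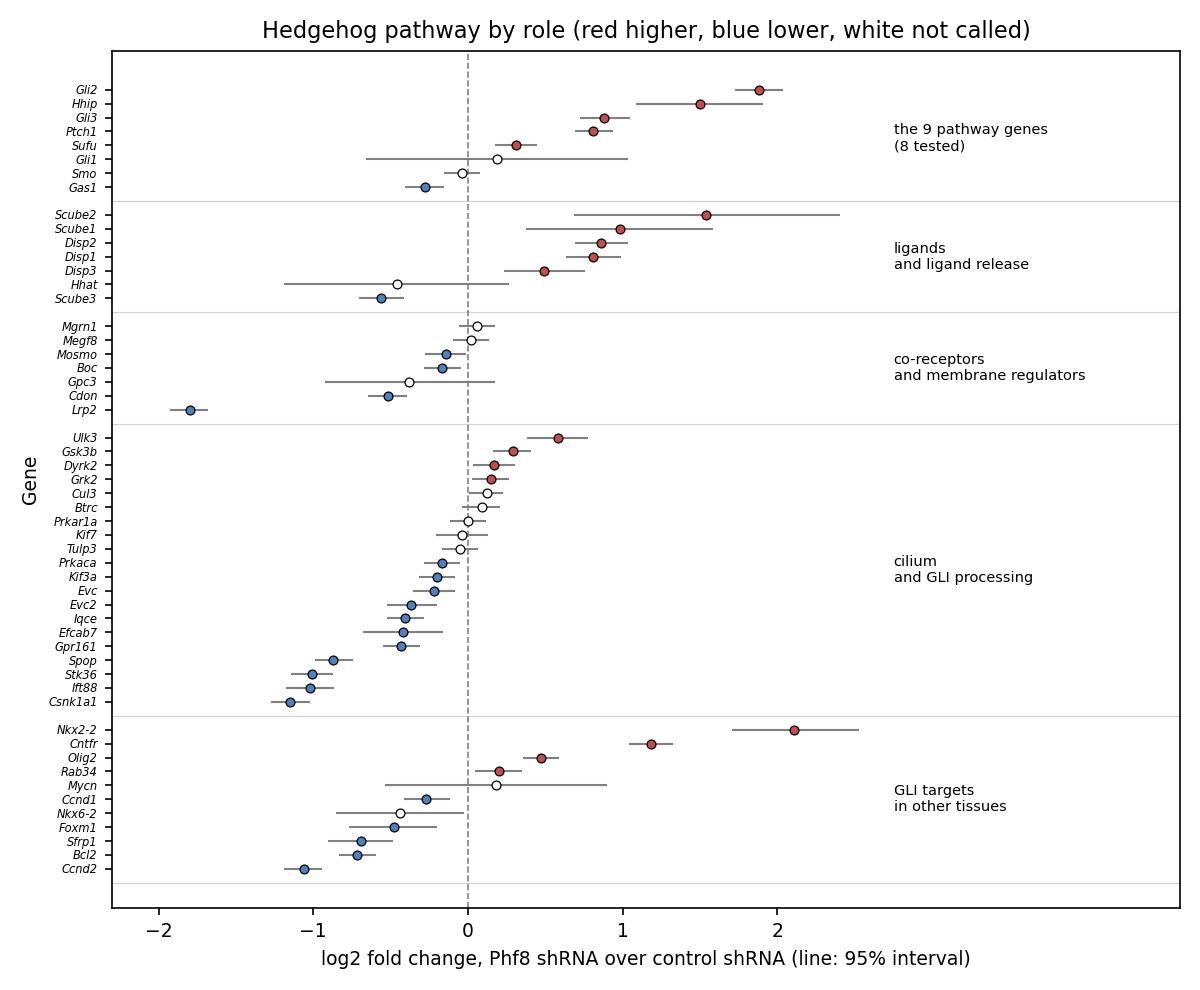
Log2 fold change of Phf8 shRNA over control shRNA for the tested genes of the pathway, grouped by role, with 95% intervals as lines, called genes in red or blue and genes that did not pass in white. The co-receptor group holds Lrp2 at -1.80 and no red point, and the group of cilium and GLI processing genes lies mostly left of 0, down to -1.15 for Csnk1a1.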

How the data were processed

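Per the labels' protocols, stranded libraries were made from ribosomal RNA-depleted total RNA. Per the submitters' processing notes, HISAT2, HTSeq and DESeq2 were used with the mm10 build. Tool versions, annotation release and strand setting were not given in the sources used here. Per gene and library, the authors deposited a whole-number read count, used as the raw count. Symbols, exonic lengths and overlaps came from GENCODE M21, which gives all 9 pathway genes the deposited start and end.

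The genes and lists were chosen with earlier results of these data known. All 4 libraries entered an edgeR 4.0.16 quasi-likelihood fit (R 4.3.3) without covariates, after filterByExpr and TMM scaling. Calls needed an adjusted p (Benjamini-Hochberg, all genes tested) under 0.05. Standard errors were derived from fold change and F statistic. Genes under 30 reads in a group got exact binomial counting intervals. The fit was tested on simulated counts. Named genes were the 9 pathway genes, Phf8, up to 5 called genes of smallest p in each list, and the genes most like Gli1 and Ptch1. A few of these are not reported here. Alternatives were other scalings, DESeq2 1.42.0, limma-voom (limma 3.58.1), a robust fit, a set coefficient of variation, other filters and thresholds, a replicate block, leaving out each library, and dropping mitochondrial genes with the 20 most abundant ones.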

Additional observations from a re-analysis of the deposited data

How the results depend on the processing

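Of 135 values of the 8 tested pathway genes under the alternatives, 129 kept their direction and their side of the threshold. The settings of an adjusted p under 0.01 and of a minimum of 1.5-fold reuse the values of the main fit. In them no direction could change, and Smo and Gli1 could not gain a call. Smo reached 0.04 with upper-quartile scaling, and Gli1 ran from -0.67 to 0.80 when a library was left out, not passing in any case. Sufu and Gas1 lost their calls with a coefficient of variation of 0.2 and with a minimum of 1.5-fold, and Gli2, Gli3, Ptch1 and Hhip kept theirs in all 17 settings. Shh was tested under 4 settings and did not pass, with adjusted p of 0.157 to 0.581 (edgeR). With a coefficient of variation of 0.2, 3305 genes were called, 1262 higher and 2043 lower. There, 0 of the 9 pathway genes were lower, 3 ligand genes were higher and 0 lower, 1 co-receptor gene was lower, 0 cilium and GLI processing genes were higher and 4 lower, and 2 GLI targets were higher and 1 lower. With a minimum of 1.5-fold, 5448 genes were called, 2531 higher and 2917 lower. There, 0 pathway genes and 0 ligand genes were lower, 1 co-receptor gene was lower, 0 cilium genes were higher and 4 lower, and 2 GLI targets were higher and 3 lower. DESeq2 called 3 ligand genes and 2 cilium genes higher and 2 co-receptor genes lower. Over all genes it called 3491 higher and 4525 lower, against 5225 and 5740 in the main fit. Upper-quartile scaling called 1 co-receptor gene higher and 2 lower, beside 6640 higher and 4811 lower over all genes. The cilium genes called higher were also 2 with library size alone, with no low-count filter and at an adjusted p under 0.01. Over all genes, those settings called 4335, 4936 and 4154 genes higher. Ligand genes called higher were 3 with a minimum of 1 CPM, where 4819 genes were higher over all genes. Scube1 and Scube2, below 1 CPM in every library, were not tested in that setting. With a library left out, 2 to 5 cilium genes were higher and 3 to 5 GLI targets lower. The cause of these shifts was not tested, apart from the thresholds and the minimum of 1 CPM, which admit fewer genes by construction. Over the genes tested, deviations of same-numbered samples from their group means were not correlated (-0.00102). That value cannot show whether same-numbered samples were prepared together. With the replicate block 5 pathway genes were higher and 1 lower, as without it. Depth limits Shh and Gli1, which had at most 19 reads in a library.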

Other observations

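Over the 4 libraries, the genes whose profile of log2 CPM (centred on each gene's mean) lay closest to that of Ptch1, among 11596 genes averaging 2 CPM or more, were Maneal, Myt1 and Tox3, at Euclidean distances of 0.0212, 0.0296 and 0.0338. Their log2 fold changes were 0.81, 0.82 and 0.82, beside 0.81 for Ptch1. The 4 libraries in 2 groups make such likeness little more than a matching fold change. Per kilobase, Hhip stood at 0.0148 and 0.0154 times the level of Ptch1 with Phf8 shRNA and at 0.00841 and 0.0104 times with control shRNA.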
